A study of Saccharomyces cerevisiae with 6 samples.

Results

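The gene expression of 2 yeast strains was compared here. Both survive without working Mot1 through a changed TATA-binding protein (TBP), one with the allele TBP-F207L and the other with TBP-Y185C. The comparison used 4 of the 6 arrays of the series, 2 per bypass strain, and every probe that the array marks as a gene rather than a control. Each array held RNA of a bypass strain in one dye and RNA of the wild-type (WT) strain in the other. The first array of each pair had the mutant in Cy5 and the second had it in Cy3. The log2 mutant-over-WT ratio of each TBP-Y185C array was subtracted from that of the TBP-F207L array with the same dye orientation, and the 2 differences were averaged. The comparison is therefore indirect, through the shared WT reference.

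All strains were AY138 carrying a plasmid and taken after FOA (fluoroorotic acid, which kills cells that keep a URA3 plasmid). The plasmid was pTBP-F207L, pTBP-Y185C or, for WT MOT1+, pAV20. Cells grew in rich medium (YPD) at 30 °C to an optical density of about 1. The remaining arrays carried mot1-14, in AY138 with pMOT244, and entered the fit only to estimate the spread between arrays. The labels do not say whether a strain was 1 clone, nor whether separate cultures stood behind the arrays of a strain. If not, the p-values reflect technical spread alone. The study set out to find which Mot1-regulated genes each bypass allele restores and which it newly misregulates. The contrast below asks how the bypass strains differ from each other.

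TBP binds the minor groove of TATA elements, bends the DNA and nucleates the transcription machinery. The phenylalanine replaced in TBP-F207L is one of those that wedge between bases of the bound DNA. Mot1 is a Snf2-family ATPase that strips TBP from DNA, and its loss raises some transcripts and lowers others. Bypass alleles of SPT15, the gene for TBP, let cells live without this activity.

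On the 4 bypass arrays the median signal was 8.05 to 22.7 times the local background in red and 7.37 to 10.8 times in green. Of 6256 gene probes, 6219 were well above background in at least 1 channel on at least 2 of these arrays and were tested, and 37 were not. The log2 ratios of the arrays of a pair correlated across genes at r = 0.94 for TBP-F207L and 0.96 for TBP-Y185C. The arrays of each strain lay on a slide of their own, so slide and strain cannot be told apart.

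The altered genes served as a check of the labels. SPT15 had log2 ratios to WT of 3.64 and 3.62 on the TBP-F207L arrays and of 4.28 and 3.87 on the TBP-Y185C arrays. Every bypass array thus showed SPT15 far above WT, and the strains did not overlap. SPT15 was lower in TBP-F207L (log2 difference -0.45, SE 0.14, adjusted p = 0.0425). The call was lost without the first TBP-Y185C array (-0.18, adjusted p = 0.278), in a fit of the channels taken separately (the separate-channel fit, at -0.18 and adjusted p = 0.799), and without the dye term, the fit's allowance for a dye bias of each probe (adjusted p = 0.164). It was also lost with the deposited log ratios or series values (adjusted p = 0.111 and 0.109) and without background correction (adjusted p = 0.0601). PEA2, a polarity gene beside SPT15 on the chromosome, stood at 3.13 and 3.33 in TBP-F207L and at 3.46 and 3.63 in TBP-Y185C. It was also lower in TBP-F207L (difference -0.31, SE 0.05, adjusted p = 0.00369), but did not pass without the dye term (adjusted p = 0.157) or in the separate-channel fit (-0.04, adjusted p = 0.885). MOT1 itself was low in both strains, at -1.74 and -3.41 on the TBP-F207L arrays and at -3.73 and -3.28 on the TBP-Y185C arrays. These ranges overlapped, and the difference of 0.93 did not pass (SE 0.42, 95% interval -0.08 to 1.94, adjusted p = 0.127). With median centring in place of loess the MOT1 difference was 1.02 and passed (adjusted p = 3.04e-17). That fit gave all genes a common spread, so its p-value does not reflect MOT1's own spread. The difference was 0.01 without the first TBP-F207L array and 1.85 without the second. It was 0.25 and 1.61 without the first and the second TBP-Y185C array.

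Differences in 3 marker genes commonly carried on yeast plasmids did not pass. TRP1 differed by -0.32 (95% interval -0.75 to 0.11), LEU2 by -0.06 (-0.17 to 0.05) and URA3 by 0.02 (-0.16 to 0.21). TRP1 passed with median centring (-0.44, adjusted p = 0.000959), where all genes were given a common spread. Its difference was -0.69 without the second TBP-Y185C array. TRP1 nevertheless stood far above WT on all bypass arrays, at 4.74 and 4.27 in TBP-F207L and at 5.36 and 4.29 in TBP-Y185C. BNA1 and URA1, enzymes of NAD and pyrimidine synthesis, were below WT in both strains. BNA1 was at -1.79 in TBP-F207L and -1.73 in TBP-Y185C (difference -0.06, 95% interval -0.20 to 0.09). URA1 was at -0.94 and -1.03 (difference 0.10, 95% interval -0.03 to 0.22). INO1, the inositol phosphate synthase gene, was above WT in both but less so in TBP-F207L, at 0.82 and 1.05 against 1.41 and 1.41. The difference was -0.48 (SE 0.06, adjusted p = 0.00263). This call was lost with the deposited log ratios or series values (adjusted p = 0.114 and 0.111) and without the dye term (adjusted p = 0.072).

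Many genes differed between the bypass strains, nearly all by little. Of 6219 genes, 2316 passed at an adjusted p under 0.05, which is 37.2%. Of these, 958 were higher in TBP-F207L (15.4% of those tested) and 1358 were lower (21.8%). The median size of a passing difference was 0.27 on the log2 scale, and 2200 of the passing genes lay below 1.5-fold. At 2-fold or more, 13 genes passed (0.209%), 3 of them higher in TBP-F207L (0.0482%) and 10 lower (0.161%). The Cy5 and Cy3 differences correlated at r = 0.79 across the 6219 genes, which share arrays and are not independent replicates. All 2316 passing genes had the same sign in both orientations, a property the test favours, against 78.3% of those tested. Against WT, 79.3% of the genes tested passed in TBP-F207L and 79.8% in TBP-Y185C, comparisons that share the reference strain.

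The number of genes called depended on the dye term and on other settings. Without it 115 genes passed, 29 higher and 86 lower. Leaving out the first TBP-Y185C array gave 910 calls and leaving out the second gave 1239. For all 47 gene lists described below, the number of calls fell by a factor of over 1.5 without the dye term and in the separate-channel fit. It did so for 30 lists with the deposited log ratios and for 22 with median centring. Most lists also fell by that much without either TBP-Y185C array.

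**Figure D1:**
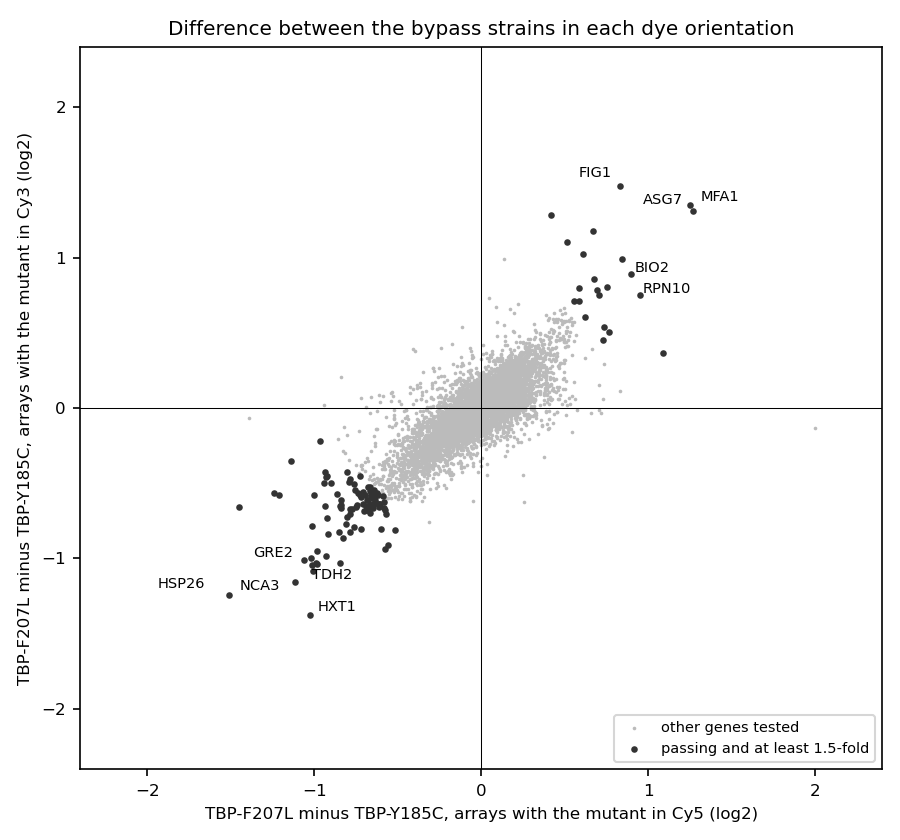
Each point is a gene tested, placed by its log2 difference between TBP-F207L and TBP-Y185C on the arrays with the mutant in Cy5 (horizontal axis) and in Cy3 (vertical axis). Dark points are the 116 genes that passed at 1.5-fold or more, 22 of them higher in TBP-F207L and 94 lower, and labels mark some of the genes with the largest differences.

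The WT channels of the same arrays gave a control measurement, since the WT strain was the same on each. In a fit of the separate channels over 6113 genes, the mutant channels differed by a median of 0.20 in size on the log2 scale and the WT channels by 0.11. In that fit, 551 genes passed between the mutant channels (9.01%), 148 higher in TBP-F207L and 403 lower. Between the WT channels 7 genes passed (0.115%), and 413 did at an unadjusted p under 0.05. The mutant-over-WT ratios used for the main comparison take out shifts common to both channels of an array.

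**Figure D2:**
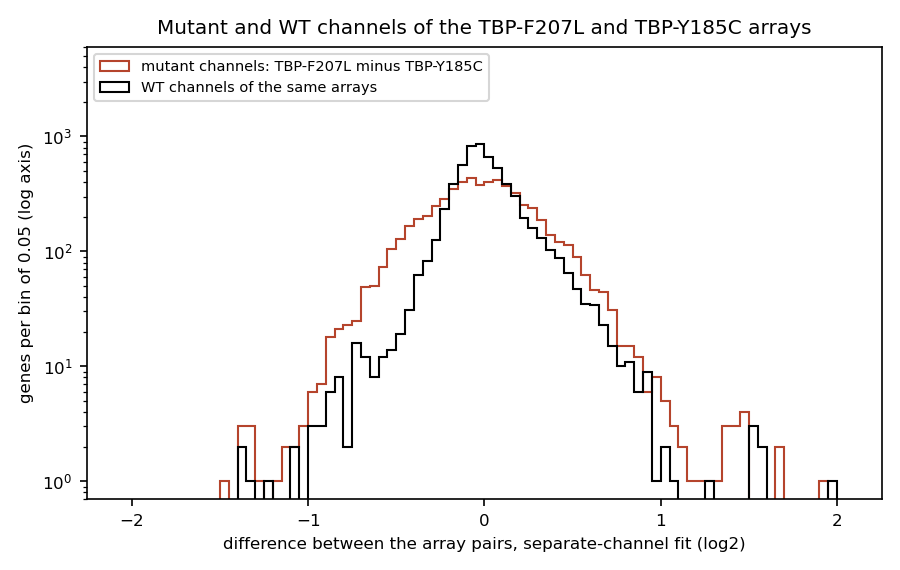
The histogram counts genes by their difference between the TBP-F207L and the TBP-Y185C arrays on the log2 scale, separately for the mutant channels and the WT channels, with a log axis for the count. The mutant channels spread more widely, with a median size of 0.20 against 0.11 for the WT channels.

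The largest differences in favour of TBP-F207L were led by mating genes. MFA1, which encodes the precursor of the pheromone a-factor, had log2 ratios to WT of 1.46 and 1.12 in TBP-F207L and of 0.21 and -0.24 in TBP-Y185C. ASG7, an a-specific gene that acts on pheromone signalling, stood at 1.32 and 1.21 against 0.05 and -0.10. FIG1, a membrane protein of mating cells, stood at 1.33 and 1.76 against 0.50 and 0.29. In each of these genes both TBP-F207L arrays lay above both TBP-Y185C arrays, by a fitted 2.47-fold for MFA1 (log2 1.30, SE 0.08, adjusted p = 0.00036), 2.44-fold for ASG7 (1.29, SE 0.05, adjusted p = 0.00021) and 2.23-fold for FIG1 (1.16, SE 0.15, adjusted p = 0.00208). FIG1 did not pass in the separate-channel fit (0.85, adjusted p = 0.141), and its difference was 0.84 without the second TBP-F207L array. MFA1 did not pass without the dye term (adjusted p = 0.0621). Of the 15 largest differences in this direction, those of FAR1, SAG1, PRM2, STE6, FIG2, FUS1 and HO also belonged to mating genes.

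The others in this direction were of several kinds. BIO2, the biotin synthase gene, was at 0.69 and 1.17 in TBP-F207L and at -0.16 and 0.18 in TBP-Y185C. Its difference was 0.92 (SE 0.05, adjusted p = 0.00036), a call lost without the dye term (adjusted p = 0.0776). RPN10, a ubiquitin receptor of the proteasome, was near WT in TBP-F207L, at 0.03 and 0.08, and below WT in TBP-Y185C, at -0.86 and -0.81 (difference 0.89, SE 0.08, adjusted p = 0.000871). BAT2, the cytosolic branched-chain aminotransferase gene, was below WT in both strains but less so in TBP-F207L, at -0.67 and -0.51 against -1.38 and -1.26. The remaining members were the reading frames YIL082W (difference 0.85, SE 0.19, adjusted p = 0.0143) and YIL082W-A (0.92, SE 0.13, adjusted p = 0.00325).

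The largest differences in favour of TBP-Y185C were led by HSP26, a small heat shock protein gene. It stood at 0.84 and 0.88 in TBP-F207L and at 2.35 and 2.12 in TBP-Y185C. HXT1, a low-affinity glucose transporter gene, was below WT in both strains, at -2.33 and -2.39 in TBP-F207L and at -1.31 and -1.01 in TBP-Y185C. NCA3, of the SUN family, was close to WT in TBP-F207L, at 0.11 and 0.28, and above WT in TBP-Y185C, at 1.22 and 1.44. No ranges overlapped, and the fitted excess of TBP-Y185C was 2.60-fold for HSP26 (difference -1.38, SE 0.08, adjusted p = 0.000391), 2.30-fold for HXT1 (-1.20, SE 0.08, adjusted p = 0.000584) and 2.19-fold for NCA3 (-1.13, SE 0.05, adjusted p = 0.00021).

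Of the 15 largest differences in this direction, 8 belonged to glucose uptake or glycolysis and fermentation besides HXT1, namely those of HXT3, HXT4, TDH2, TDH3, ENO1, ENO2, ADH1 and ADH5. GRE2, a methylglyoxal reductase gene, was at -1.23 on both TBP-F207L arrays and at -0.21 and -0.19 in TBP-Y185C (difference -1.03, SE 0.05, adjusted p = 0.00021). AQR1, a plasma membrane exporter gene, was at -1.81 and -1.90 against -0.82 and -0.95 (difference -0.97). GID10, a substrate receptor of the GID ubiquitin ligase, was above WT in both strains, at 1.00 and 1.87 against 2.45 and 2.53 (difference -1.06, SE 0.17, adjusted p = 0.00441). SDS24 was also above WT in both, at 0.57 and 1.19 against 1.81 and 1.76.

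The 15 genes of each direction were chosen for large differences of equal sign in both orientations. That their arrays did not overlap between the strains is therefore no added support. The share of all genes without overlap was not computed. In the separate-channel fit the mutant channels kept the direction for all of these genes, and 9 of 15 higher in TBP-F207L and 12 of 15 lower passed. Their WT channels differed by -0.30 to 0.51 among the first and by -0.40 to 0.52 among the second, and none passed (lowest adjusted p = 0.633). The widest WT shifts belonged to SDS24, at 0.52, YIL082W-A, at 0.51, and YIL082W, at 0.45. Without the first TBP-F207L array the differences of SDS24, GID10 and HO shrank over 1.5 times, to -0.57, -0.70 and 0.43, and without the second those of YIL082W and PRM2 shrank to 0.44 and 0.53. Calls were lost without the first TBP-Y185C array for SDS24 (-0.73, adjusted p = 0.0634), HO (0.48, adjusted p = 0.0808) and ADH1, and without the second for YIL082W (0.62, adjusted p = 0.116) and ADH1. With the deposited log ratios YIL082W, PRM2, GID10, ADH1 and SDS24 did not pass, and in the separate-channel fit SDS24 was at -0.38 (adjusted p = 0.573).

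**Figure D3:**
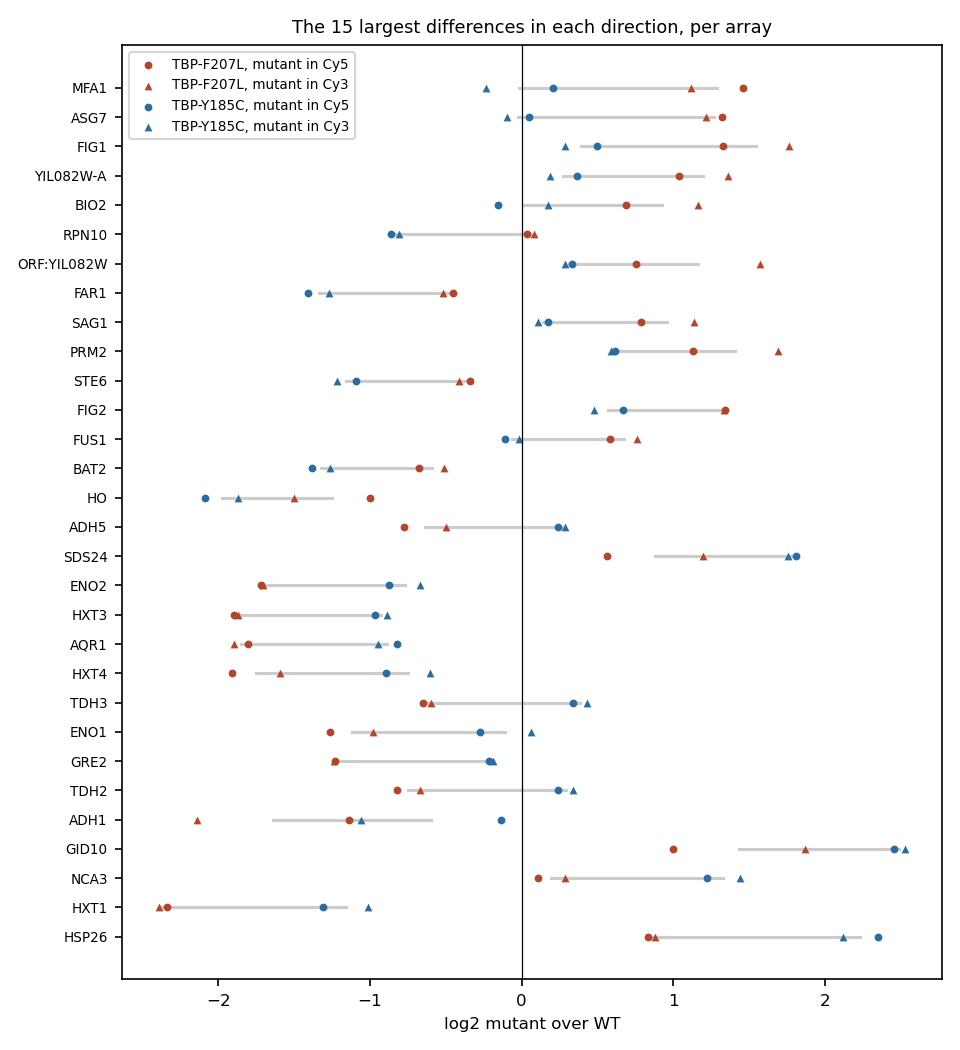
Log2 mutant-over-WT ratios are shown per array for the 15 largest differences in each direction, with circles for arrays with the mutant in Cy5, triangles for those with the mutant in Cy3, and a grey line joining the fitted values of the strains. In each row both TBP-F207L arrays lie on the same side of both TBP-Y185C arrays, and genes such as TDH2, TDH3 and ADH5 lie on opposite sides of the WT line at 0.

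The gene lists below were chosen with earlier results of these data known, so their shares are descriptions and not tests. Genes of the pheromone response and mating were mostly higher in TBP-F207L. Of 40 tested, 26 were higher (against 15.4% of all genes), 1 was lower and 13 did not pass, with a median difference of 0.28 against -0.01 over all genes tested. The median ratio to WT of the 40 genes was 0.36 and 0.39 on the TBP-F207L arrays and 0.16 and 0.01 on the TBP-Y185C arrays. FAR1, the inhibitor that arrests the cycle in pheromone, was below WT in both strains, at -0.45 and -0.52 in TBP-F207L and at -1.41 and -1.27 in TBP-Y185C (difference 0.85, SE 0.06, adjusted p = 0.000584). FUS1, needed for cell fusion, was at 0.59 and 0.76 against -0.11 and -0.02 (difference 0.74). FIG2, a mating adhesin, was at 1.34 and 1.33 against 0.67 and 0.48 (difference 0.77), and PRM2, a pheromone-regulated membrane protein, was at 1.13 and 1.69 against 0.62 and 0.59 (difference 0.81). The member lower in TBP-F207L was STE50, a MAP kinase cascade adaptor, at -0.21, a gene named after its value was seen. Without the dye term 7 members passed as higher and 0 as lower, and 17 and 16 were higher without the first and the second TBP-Y185C array.

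The labels give no mating type, so markers of each were read. For comparison, 15.4% of all genes were higher and 21.8% lower. Of the 7 a-specific markers 6 were higher in TBP-F207L, with differences of 1.30 in MFA1, 1.29 in ASG7, 0.78 in STE6 (the a-factor exporter), 0.51 in BAR1 (the protease that destroys alpha-factor), 0.50 in MFA2 and 0.27 in STE2 (the alpha-factor receptor). AGA2, the a-agglutinin subunit, did not pass at 0.08 (adjusted p = 0.336). The a-specific markers had a median ratio to WT of 0.35 and -0.05 on the TBP-F207L arrays and of 0.05 and -0.24 on the TBP-Y185C arrays. Of the 4 alpha-specific markers, SAG1 (alpha-agglutinin, difference 0.82) and MF(ALPHA)2 (alpha-factor, 0.35) were higher, STE3 (the a-factor receptor, -0.37) was lower and MF(ALPHA)1 did not pass, at -0.04. Of the 7 haploid-specific markers FAR1 and FUS3 were higher (0.85 and 0.19), RME1, a repressor of meiosis, was lower (-0.55), and 4 did not pass. The part of mating-type makeup in the mating-gene differences was not tested.

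Glycolysis and fermentation genes were mostly lower in TBP-F207L. Of 21 tested, 15 were lower (against 21.8% of all genes), 0 were higher and 6 did not pass, with a median difference of -0.47. The median ratio to WT of the 21 genes was -0.53 and -0.78 on the TBP-F207L arrays and -0.04 and -0.29 on the TBP-Y185C arrays. TDH2 and TDH3, genes of glyceraldehyde-3-phosphate dehydrogenase, lay below WT in TBP-F207L and above it in TBP-Y185C. TDH2 was at -0.82 and -0.67 against 0.24 and 0.34 (difference -1.04, SE 0.05, adjusted p = 0.00021), and TDH3 was at -0.65 and -0.60 against 0.34 and 0.43 (difference -1.01, SE 0.05, adjusted p = 0.00028). ENO1, an enolase gene, was at -1.26 and -0.98 against -0.28 and 0.06 (difference -1.01), and its paralog ENO2 at -1.72 and -1.70 against -0.87 and -0.67 (difference -0.94). These arrays did not overlap between the strains. TDH and ENO paralogs are nearly identical and may share signal.

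The list also held alcohol dehydrogenase genes. ADH1, the main fermentative enzyme, was at -1.14 and -2.14 in TBP-F207L and at -0.13 and -1.06 in TBP-Y185C (difference -1.04, SE 0.26, adjusted p = 0.0221). Its spots were saturated on 2 of the bypass arrays, and the call was lost with the deposited log ratios (adjusted p = 0.0907) and without either TBP-Y185C array (adjusted p = 0.177 without the first and 0.0511 without the second). ADH5 was at -0.77 and -0.50 against 0.24 and 0.29 (difference -0.90, SE 0.06, adjusted p = 0.000584). Without the dye term 6 of the 21 glycolysis genes passed, all of them lower.

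Hexose transporter and glucose sensor genes that passed were lower in TBP-F207L. Of 25 tested, 14 were lower (against 21.8% of all genes), 0 were higher and 11 did not pass, with a median of -0.23. HXT3, a low-affinity transporter used when glucose is plentiful, was at -1.89 and -1.87 in TBP-F207L and at -0.97 and -0.88 in TBP-Y185C (difference -0.96, SE 0.05, adjusted p = 0.000221). HXT4, which glucose at high levels represses, was at -1.91 and -1.60 against -0.89 and -0.60 (difference -1.01, SE 0.05, adjusted p = 0.00021). The size of the HXT4 difference depended on the processing, at -1.41 with the deposited log ratios and -1.38 in the separate-channel fit. HXT6, a high-affinity transporter used when glucose is scarce, was above WT in both strains, at 1.19 and 1.70 against 2.13 and 2.36 (difference -0.80, SE 0.08, adjusted p = 0.00111). HXT6 and HXT7 are nearly identical and may share signal. Without the dye term 3 members passed, all lower, and without the first and the second TBP-Y185C array 8 and 9 were lower.

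**Figure D4:**
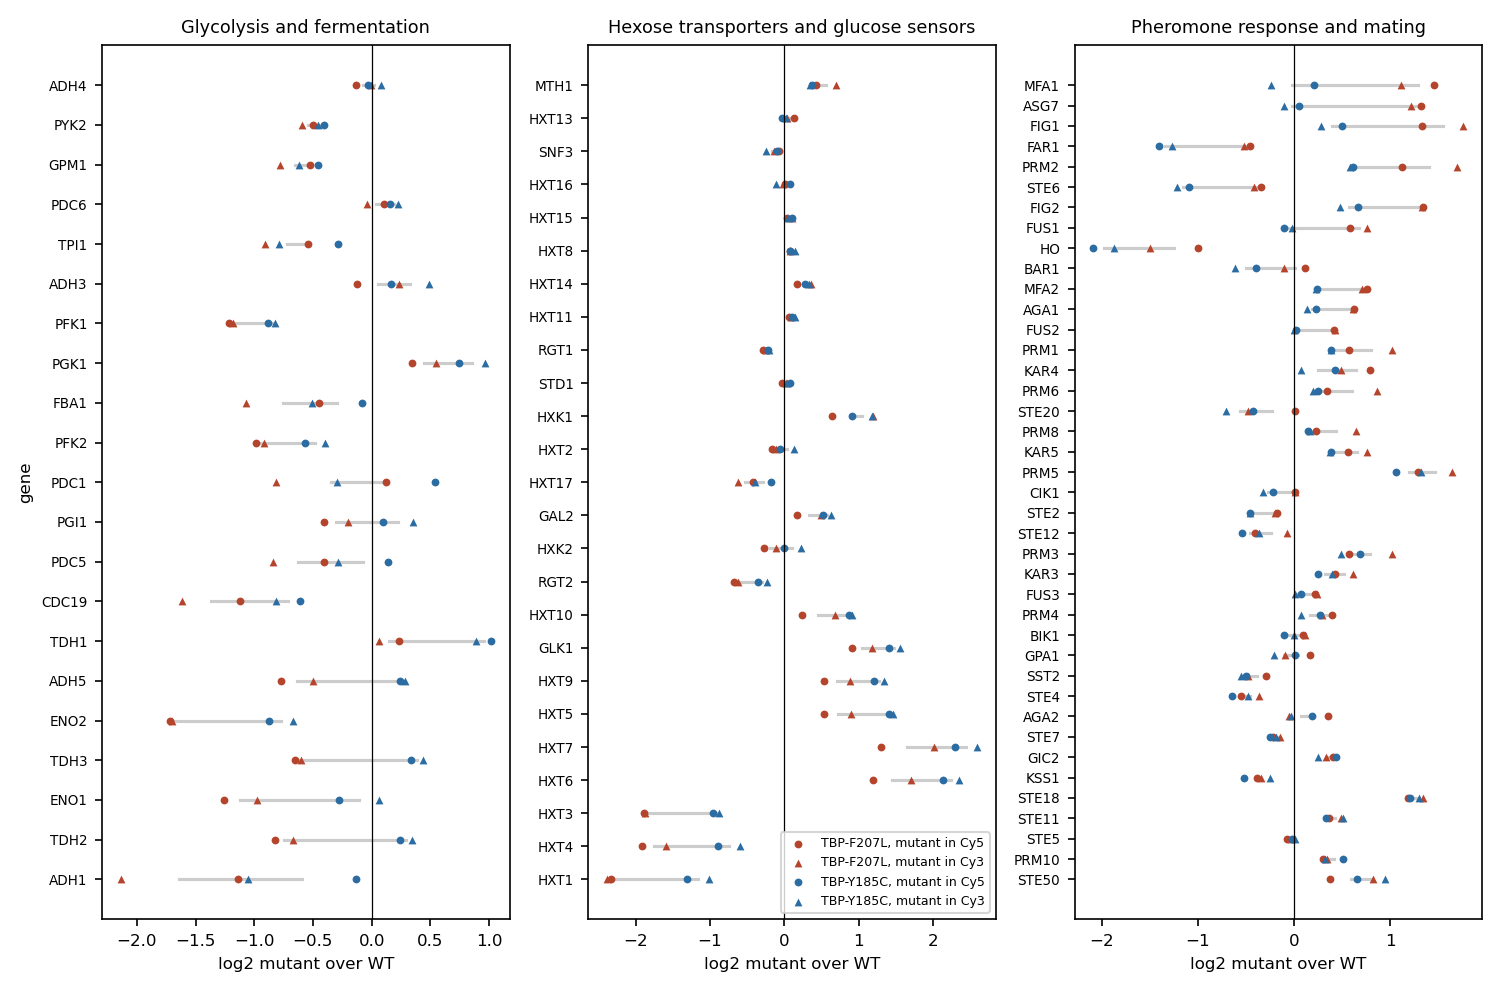
Log2 mutant-over-WT ratios are shown per array for every tested gene of glycolysis and fermentation (21), hexose transport and glucose sensing (25) and pheromone response and mating (40), sorted by the difference between the strains. In the glycolysis panel the TBP-F207L points lie left of the TBP-Y185C points in most rows, and in the mating panel they lie to the right.

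Other carbon routes were counted in the same way, against 21.8% of all genes lower and 15.4% higher. For gluconeogenesis, the glyoxylate cycle and the use of ethanol or acetate, 9 of 25 genes were lower, 2 were higher and the median was -0.12. ADH2, which oxidises ethanol, was above WT in both strains, at 2.07 and 2.31 in TBP-F207L and at 2.65 and 3.25 in TBP-Y185C (difference -0.76, SE 0.13, adjusted p = 0.00576). MDH2, the cytosolic malate dehydrogenase gene, differed by -0.51, ACS1 (acetyl-CoA synthetase) by -0.49 and ALD2 (aldehyde dehydrogenase) by -0.49. In the pentose phosphate pathway 8 of 13 genes were lower, 0 were higher and the median was -0.30. GND2, a phosphogluconate dehydrogenase gene, was at 1.39 and 1.59 against 2.05 and 2.12 (difference -0.59), and RPE1, the ribulose-phosphate epimerase gene, was at -0.86 and -0.91 against -0.46 and -0.47 (difference -0.42).

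For glycerol and the osmotic response 8 of 18 genes were lower and 2 were higher, with a median of -0.13. They included GPP1 (glycerol phosphatase) at -0.56 and GPD1 (glycerol-3-phosphate dehydrogenase) at -0.54. Of 21 trehalose and glycogen genes 6 were lower and 3 were higher. These shares were close to those of all genes (21.8% lower and 15.4% higher), and the median was -0.09. PGM2, the main phosphoglucomutase gene, differed by -0.62, and TSL1, a trehalose synthase subunit, by -0.52. In the galactose pathway 3 of 8 genes were lower, 1 was higher and the median was -0.06, a sign that turned with median centring (0.02), without the first TBP-Y185C array (0.01) and with only probes above background in both channels (0.02).

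General stress genes were more often lower than higher in TBP-F207L. Of 43 tested, 26 were lower (against 21.8% of all genes), 2 were higher and 15 did not pass, with a median difference of -0.29 that was -0.19 without the first TBP-F207L array. The median ratio to WT was 0.87 and 1.19 on the TBP-F207L arrays and 1.58 and 1.62 on the TBP-Y185C arrays. YGP1, a secreted glycoprotein of starved cells, was at 0.78 and 0.81 against 1.56 and 1.51 (difference -0.74, SE 0.08, adjusted p = 0.00141). PAI3, an inhibitor of vacuolar proteinase A, was at 0.54 and 1.07 against 1.48 and 1.57 (difference -0.72). HSP26 and SDS24 were the other leading members. Without the dye term 2 members passed, both lower, and without the first TBP-Y185C array 14 were lower.

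Among 31 chaperone and small heat shock protein genes 12 were lower (against 21.8% of all genes), 3 were higher and the median was -0.23. The median was -0.11 without the first TBP-F207L array and -0.12 without the first TBP-Y185C array, and without the dye term 0 passed. SSA4, a stress-induced Hsp70, was at 0.91 and 1.39 in TBP-F207L and at 1.82 and 1.89 in TBP-Y185C (difference -0.70, SE 0.09, adjusted p = 0.0023). BTN2, an aggregate-sorting protein, differed by -0.59, SSE2 (an Hsp110) by -0.52 and SSA3 (an Hsp70) by -0.41. Of 30 antioxidant genes 14 were lower, 4 were higher and the median was -0.16. CCP1 (cytochrome c peroxidase) differed by -0.49, SRX1 (sulfiredoxin) by -0.47, GRX2 (glutaredoxin) by -0.42 and TRX2 (thioredoxin) by -0.42.

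Cell surface genes were mostly lower in TBP-F207L. Over all genes, 21.8% were lower and 15.4% higher. Of 38 cell wall genes 23 were lower, 4 were higher and 11 did not pass, with a median of -0.21. GSC2, a glucan synthase subunit, was at 0.64 and 0.91 in TBP-F207L and at 1.56 and 1.75 in TBP-Y185C (difference -0.88, SE 0.06, adjusted p = 0.000584). YPS3, an aspartic protease anchored at the surface, was at 0.41 and 0.39 against 1.34 and 1.12 (difference -0.83, SE 0.06, adjusted p = 0.000641). DSE2 and SCW11, glucanase-like proteins of cell separation, differed by -0.63 and -0.59. Of 30 seripauperin and anaerobic mannoprotein genes 26 were lower, 0 were higher and 4 did not pass. Their median difference was -0.29, with medians to WT of 0.04 and -0.03 in TBP-F207L and of 0.38 and 0.24 in TBP-Y185C. PAU17, PAU23, PAU21 and PAU13 differed by -0.49, -0.46, -0.44 and -0.44. In the COS family 7 of 11 genes were lower, 0 were higher and the median was -0.32, led by COS1 at -0.65. PAU and COS members are near copies of each other, so the members of each family are not separate measurements. Without the first and the second TBP-Y185C array, 14 and 15 cell wall genes and 13 and 17 seripauperin and mannoprotein genes were lower.

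Lipid genes included several with lower values in TBP-F207L, where 21.8% of all genes were lower and 15.4% higher. In ergosterol synthesis 14 of 26 genes were lower, 3 were higher and the median was -0.19. ERG25, a sterol methyl oxidase gene, was at -0.67 and -0.32 in TBP-F207L and at 0.00 and 0.38 in TBP-Y185C (difference -0.68, SE 0.05, adjusted p = 0.000584), and ERG3, the sterol desaturase gene, was at 0.09 and 0.02 against 0.81 and 0.60 (difference -0.65). ERG1, the squalene epoxidase gene, differed by -0.54. Among 20 inositol, choline and phospholipid genes 10 were lower, 2 were higher and the median was -0.17. CPT1 (cholinephosphotransferase) differed by -0.73 and OPI3 (phospholipid methyltransferase) by -0.67. Of 18 peroxisomal beta-oxidation genes 7 were lower, 1 was higher and the median was -0.15, led by PEX11, a peroxisome division protein, at -0.73. Of 17 aerobic and hypoxic genes 7 were lower and 3 were higher, with a median of -0.07. OLE1, the fatty acid desaturase gene, was at -0.14 and -0.71 against 0.72 and 0.11 (difference -0.84, SE 0.09, adjusted p = 0.00132). The OLE1 call was lost without the dye term and in the separate-channel fit. NCE103, carbonic anhydrase, was higher in TBP-F207L by 0.53.

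Amino acid genes passed in both directions, and are given against 21.8% of all genes lower and 15.4% higher. Of 31 genes of sulfate assimilation, methionine and cysteine 15 were lower, 3 were higher and the median was -0.21, or -0.10 without the first TBP-F207L array. CYS3 (cystathionine gamma-lyase) was at -0.85 and -0.84 in TBP-F207L and at -0.18 and -0.20 in TBP-Y185C (difference -0.65, SE 0.05, adjusted p = 0.000584), and MUP1, the methionine permease gene, differed by -0.52. In leucine, isoleucine and valine synthesis 6 of 13 were higher and 2 were lower, with a median of 0.03 that turned negative without the second TBP-F207L array (-0.01). Besides BAT2, ILV2 (acetolactate synthase) was at 1.87 and 1.67 against 1.39 and 1.21 (difference 0.47), LEU1 (isopropylmalate isomerase) differed by 0.40 and ILV6, the regulatory subunit of acetolactate synthase, by -0.50. In arginine, lysine and histidine synthesis 8 of 24 were higher and 7 were lower. The lysine genes LYS9 and LYS1 differed by -0.63 and -0.55, and ARG1 (argininosuccinate synthetase) by 0.36. Of 14 serine and glycine genes 6 were lower and 2 were higher, with GLY1 (threonine aldolase) at -0.55 and SER3 (phosphoglycerate dehydrogenase) at -0.51. Of 16 aromatic amino acid genes 6 were lower and 2 were higher, led by ARO9, an aromatic aminotransferase, at -0.44.

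Nucleotide and cofactor genes were counted by pathway, against 21.8% of all genes lower and 15.4% higher. Of 16 NAD synthesis and salvage genes 9 were lower and 0 were higher, with a median of -0.18. BNA5 (kynureninase) was at -1.51 and -1.33 in TBP-F207L and at -0.90 and -0.70 in TBP-Y185C (difference -0.62, SE 0.05, adjusted p = 0.000644), and BNA4, the preceding enzyme, differed by -0.48. In pyrimidine synthesis 6 of 12 were lower and 0 were higher, led by URA10 at -0.40. The median of -0.08 turned positive in the separate-channel fit (0.05). In purine synthesis 9 of 25 were lower and 7 were higher, with a median of -0.04 that also turned in that fit (0.06), with FCY2, the purine-cytosine permease, at -0.67 and ADE6, an enzyme of the purine pathway, at 0.41. Of 25 thiamine and vitamin B6 genes, a list that also held biotin genes, 9 were lower and 6 were higher. The thiamine genes THI12, THI11 and THI4 differed by -0.63, -0.57 and -0.55, opposite to BIO2.

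Uptake and transport lists were mixed, and stand beside 21.8% of all genes lower and 15.4% higher. Of 26 multidrug resistance genes 13 were lower and 1 was higher, with a median of -0.17 that was -0.09 without the second TBP-F207L array and -0.11 without the second TBP-Y185C array. Besides AQR1, the exporters FLR1, TPO4 and TPO2 differed by -0.66, -0.65 and -0.63. Of 30 iron and copper genes 13 were lower and 2 were higher, with TIS11, an mRNA-decay factor induced by low iron, at -0.55 and SMF3, a vacuolar iron transporter, at -0.48. Of 29 nitrogen uptake genes 11 were lower and 2 were higher, led by ASP1 (asparaginase) at -0.40. In the zinc regulon 5 of 11 were lower and 1 was higher. That member was ZRT1, the high-affinity zinc transporter, at -0.59 and -0.57 in TBP-F207L and at -1.35 and -1.07 in TBP-Y185C (difference 0.64, SE 0.07, adjusted p = 0.00149). In the phosphate regulon 6 of 20 were higher and 4 were lower, with PHO5, the secreted acid phosphatase, at 0.50 and PHO84, the high-affinity phosphate transporter, at -0.36.

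Proteasome genes were more often higher than lower in TBP-F207L. Of 33 tested, 18 were higher (against 15.4% of all genes), 1 was lower (against 21.8%) and 14 did not pass, with a median of 0.17. The median ratio to WT was 0.28 and 0.39 on the TBP-F207L arrays and 0.14 and 0.17 on the TBP-Y185C arrays. Besides RPN10, PRE6, a core subunit, was at 1.18 and 1.16 against 0.76 and 0.69 (difference 0.44, SE 0.05, adjusted p = 0.00133), RPT2, a base ATPase, differed by 0.35 and PUP2, a core subunit, by 0.33. With median centring in place of loess 1 member passed as higher, and the median was 0.07. Without the first and the second TBP-Y185C array 9 and 7 were higher. Of 10 histone genes 5 were higher and 0 were lower, with a median of 0.22 that was 0.04 with median centring. HHT1 (histone H3) was at 0.29 and 0.25 against -0.15 and -0.15 (difference 0.42), and HTB1 (histone H2B) differed by 0.36.

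Ribosomal protein genes depended on the normalization, and are set against 15.4% of all genes higher and 21.8% lower. Of 82 large-subunit genes 28 were higher and 14 were lower (median 0.10), and of 56 small-subunit genes 20 were higher and 4 were lower (median 0.12). With median centring the medians turned to -0.10 and -0.09, with 2 higher and 16 lower and with 1 higher and 6 lower. RPS27A was at 0.77 and 0.84 in TBP-F207L and at 0.28 and 0.17 in TBP-Y185C (difference 0.58), and RPS26B differed by 0.55. RPL1A and RPL1B, nearly identical copies, differed by -0.59 and -0.56, and their arrays overlapped between the strains. Ribosome biogenesis (18 higher and 10 lower of 91, median 0.06), translation factors (11 and 6 of 36, median 0.02) and aminoacyl-tRNA synthetases (4 and 1 of 21, median 0.11) had medians that also turned negative with median centring. That of the translation factors did so without the first TBP-F207L array too (-0.02), and that of the synthetases was 0.05 without the first array of either strain. CDC60, the leucyl-tRNA synthetase gene, differed by 0.52 and TIF3, an initiation factor gene, by 0.46. RNA polymerase I and III subunits had 2 higher and 4 lower of 23. Their median of -0.02 turned to 0.01 with the deposited log ratios or series values. The shares passing were 30.8% for ribosome biogenesis, 23.8% for the synthetases and 26.1% for the polymerase subunits, below the 37.2% of all genes.

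Mitochondrial genes passed in both directions. Mitochondrial ribosomal protein genes had 20 of 68 higher and 2 lower (against 15.4% and 21.8% of all genes), with a median of 0.11. In total 32.4% of them passed, below the 37.2% of all genes. With median centring 3 passed as higher and 1 as lower, at a median of 0.10. In the TCA cycle and retrograde response 6 of 20 were higher and 2 were lower (median 0.12, or 0.08 without the first TBP-Y185C array). LPD1 (lipoamide dehydrogenase) was at -0.18 and 0.49 in TBP-F207L and at -0.72 and -0.11 in TBP-Y185C, where the ranges overlapped across dyes but not within either (difference 0.57, SE 0.05, adjusted p = 0.00077). In the respiratory chain and ATP synthase 8 of 43 were higher and 10 were lower, shares close to those of all genes (15.4% and 21.8%). CYC1, cytochrome c, differed by 0.52 and QCR6, a subunit of complex III, by 0.50, whereas COX5B, the hypoxic subunit of cytochrome oxidase, differed by -0.57 and SDH2, a succinate dehydrogenase subunit, by -0.44.

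TBP and its regulators, a list of 14, had 4 higher, 3 lower and 7 not passing, against 15.4% of all genes higher and 21.8% lower. SPT8, a subunit of the SAGA coactivator that contacts TBP, was at 0.70 and 0.98 in TBP-F207L and at 0.24 and 0.40 in TBP-Y185C (difference 0.52, SE 0.05, adjusted p = 0.00122). BUR6 and NCB2 encode the subunits of NC2, which binds TBP on DNA and blocks further assembly. BUR6 was at 1.66 and 1.92 against 1.34 and 1.44 (difference 0.40, adjusted p = 0.00256), and NCB2 was at 0.42 and 0.41 against 0.14 and 0.11 (difference 0.29, adjusted p = 0.019). SPT8, BUR6 and NCB2 were above WT on all 4 arrays, and higher in TBP-F207L. SPT15, at -0.45, was among the 3 lower members. Without the dye term 0 members of the list passed, and in the separate-channel fit 1 passed as higher and 0 as lower.

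G1 and S phase genes had 7 of 29 higher and 5 lower, against 15.4% and 21.8% of all genes. PCL1, a G1 cyclin, stood at 0.36. Of 39 sporulation genes 9 were lower, close to the 21.8% of all genes, and 2 were higher, with OSW2, a spore wall protein, at -0.85. Their median of -0.02 turned positive with median centring (0.08), in the separate-channel fit (0.08) and without the first TBP-F207L (0.03) or TBP-Y185C array (0.01). Of the 7 plasmid and marker genes 2 were lower, PEA2 and LYS2 (-0.19), so 28.6% passed against 37.2% of all genes. Along the genome, the median difference per chromosome lay between -0.03 (chromosome XII) and 0.03 (chromosome VI).

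**Figure D5:**
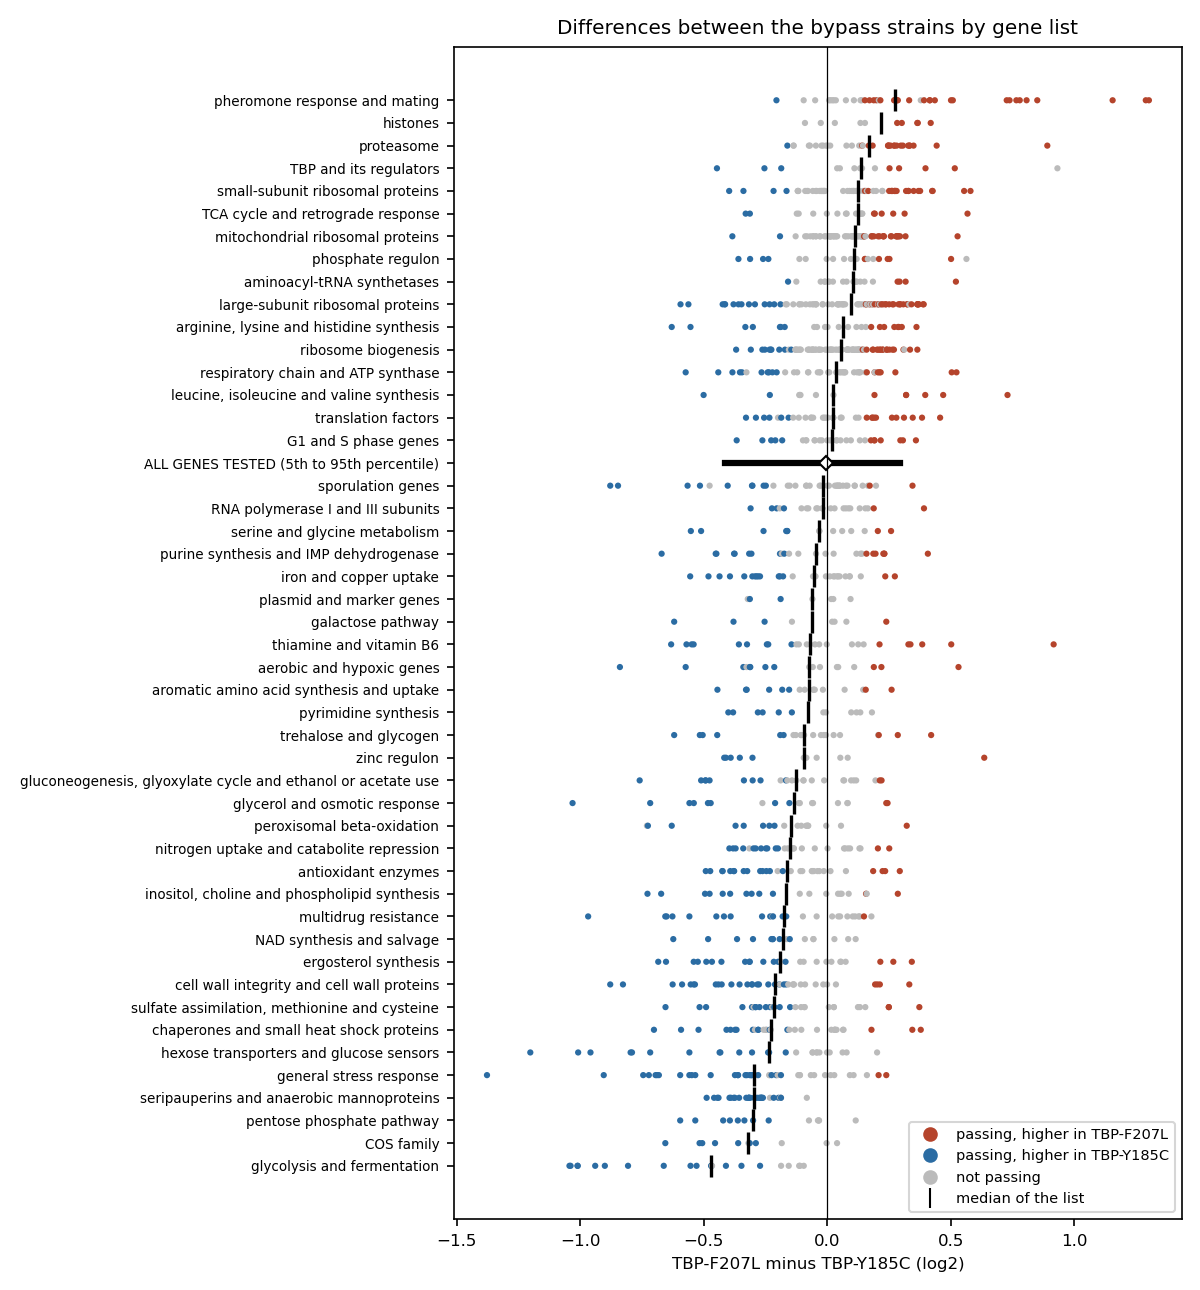
Each row is a gene list and each point a tested member, placed by its log2 difference between TBP-F207L and TBP-Y185C and coloured by whether it passed, with a bar at the list's median. The black line gives the 5th to 95th percentile of all genes tested, and the medians run from -0.47 for glycolysis and fermentation to 0.28 for pheromone response and mating.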

How the data were processed

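Two-colour yeast oligonucleotide arrays of 3 mutants against WT were used, 2 per mutant with dyes exchanged. The deposited scanner files hold spot intensity values with local background, made with Agilent Feature Extraction 7.5.1 (prefix A), per the file headers. Processed log10 ratios (Cy5 over Cy3) stand beside them in the deposited files, per the file headers. The same ratios in log2 units form the series table that the authors deposited, as a match to the scanner values showed.

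Mean signals were corrected by normexp (offset 50) and loess within arrays (limma 3.58.1, R 4.3.3). Of 10807 spots, 544 controls had weight 0 and were dropped, outlier spots were left out and saturated spots kept. Spots of a probe were averaged (4007 probes with 2 spots, 2249 with 1). Symbols came from assembly R64 for 5756 probes, and 500 kept the array's name.

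One limma model over 6 arrays held a dye intercept per probe and a coefficient per mutant signed by dye orientation. Residual degrees of freedom were 2, and the prior gave 4.79 more. With median centring the prior was infinite, so that fit gave all genes a common spread. Benjamini-Hochberg adjustment at 0.05 covered all genes tested. The replicate numbers pair arrays by dye orientation, per the labels. The channels were also fitted separately (Aquantile, lmscFit), with an intraspot correlation of 0.93. The model and scripts were tested on simulated data.

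Named genes were the 15 largest passing differences in each direction with equal signs in both orientations and measured signal, 10 preset genes, up to 4 leading members of each of 47 lists, markers of mating type, and the 5 largest with opposite signs against WT. The members and lists were chosen with earlier results of these data known. Alternatives were other input values, background, normalization and filters, bypass arrays alone, no dye term, separate channels and leaving out each array. The TATA share of promoters was not analysed here, and a leading member of the G1 and S phase list is not reported here.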

Additional observations from a re-analysis of the deposited data

Results flagged for a closer look

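Of 6219 genes tested, 155 passed against WT with opposite signs in the bypass strains and also passed between the strains. The 5 largest of these differences, named by rule, were as follows, with the difference itself tested in limma. TDH2 was at -0.75 in TBP-F207L and 0.29 in TBP-Y185C (difference -1.04, adjusted p = 0.00021), and TDH3 was at -0.62 and 0.39 (difference -1.01, adjusted p = 0.00028). ADH5 was at -0.64 and 0.26 (difference -0.90, adjusted p = 0.000584), and OLE1 was at -0.42 and 0.41 (difference -0.84, adjusted p = 0.00132). SVP26, a gene of early secretory transport, was at -0.24 and 0.53 (difference -0.78, adjusted p = 0.000384). Without the dye term OLE1 (adjusted p = 0.132) and SVP26 (adjusted p = 0.0533) did not pass. In the separate-channel fit OLE1 did not pass either (-0.63, adjusted p = 0.108). The strains share the WT reference, so the values against WT are not independent of each other.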

How the results depend on the processing

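The 30 largest differences kept their direction under all 13 alternatives. These genes were chosen from the same arrays for large differences of equal sign in both orientations. Other filters, bypass arrays alone or no dye term left their estimates unchanged. The kept direction is therefore no added support. The number of calls, 2316 in the main setting (958 higher, 1358 lower), fell under most alternatives. The deposited log ratios gave 1421 (612 and 809), 1464 passed with the authors' series values (628 and 836), and 1359 with median centring in place of loess (464 and 895). Without the dye term, that is, without the replicate block that pairs arrays by dye orientation, 115 passed (29 and 86), and with separate channels 551 (148 and 403). These last 2 moved the share higher in TBP-F207L from 41.4% of calls to 25.2% and 26.9%. Leaving out each array gave 910 to 2326 calls, 320 to 941 higher and 590 to 1385 lower. At 2-fold or more, the 3 higher genes became 8 with either deposited ratio, 6 with median centring and 13 with separate channels, and 2 to 7 without an array, and the 10 lower genes became 23 with either deposited ratio. The cause of these shifts was not tested. Of 196 named calls, 51 passed in the same direction without the dye term, 87 with separate channels, 172 with median centring and 164 with the deposited log ratios. Signs turned with separate channels for RPA34 (0.0934), FUR1 (0.0508), ZWF1 (0.0742) and BNA1 (0.102). URA1 turned with median centring (-0.0162). Leaving out each array, BNA1 ranged from -0.149 to 0.0383 (without the second TBP-F207L array), TRP1 from -0.694 to 0.0515 (without the first TBP-Y185C array) and URA3 from -0.103 (without the first TBP-F207L array) to 0.153. BNA1, URA1, TRP1 and URA3 did not pass in the main setting. RPA34 (-0.20, adjusted p = 0.0423), FUR1 (-0.28, adjusted p = 0.0105) and ZWF1 (-0.39, adjusted p = 0.0112) did pass there. Thus 3 named calls reversed their sign with separate channels. A slide block could not be fitted, since each strain has its own slide. With 2 arrays per strain and an indirect contrast, small differences are the least secure.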

Other observations

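The YRF1 genes of the telomeric Y' elements, which encode a helicase, were picked out after their values were seen and belong to no list above. All 8 on the array were higher in TBP-F207L, with differences of 0.47 to 0.57 and a median of 0.53. Against WT they lay between 0.38 and 0.64 in TBP-F207L and between -0.19 and 0.11 in TBP-Y185C. The copies are nearly identical, so their probes largely measure the same transcripts. Other gene families near chromosome ends, COS and seripauperin, lay in the opposite direction, as given above. YIL082W and YIL082W-A, which are neighbours by name, stood at 1.16 and 1.20 against WT in TBP-F207L and at 0.31 and 0.28 in TBP-Y185C.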
